A study of Mus musculus with 5 samples.

Results

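The miR-30 family was followed across kidney IRI on 5 Agilent mouse miRNA microarrays. Its 7 members, of 1247 miRNAs on the array, were mmu-miR-30a-5p, mmu-miR-30b-5p, mmu-miR-30c-5p, mmu-miR-30d-5p and mmu-miR-30e-5p, the main (5p) strands of the hairpins, and mmu-miR-30a-3p and mmu-miR-30e-3p, the opposite (3p) strands of the miR-30a and miR-30e hairpins; the prefix for mouse is left out below. They were taken by name from the array's annotation, with no filter on their signals, but with earlier results of these data known. All 7 were detected on all 5 arrays. The mice were male C57B/6 mice whose kidneys on both sides underwent 30 min of warm ischemia and then reperfusion, and kidney tissue was taken 6, 12, 24 or 48 h later. Sham mice had the same operation but no clamp was placed. The methods give 8 mice per time point. Neither they nor the labels give an age or the hour at which the sham kidneys were taken. Each of the 5 groups had 1 array, and neither the labels nor the methods state whether RNA of several mice was pooled for it.

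miRNAs are short RNAs that lower the output of target mRNAs, which they find mainly through the seed, bases 2 to 8 from the 5′ end. Members of the miR-30 family share a seed on the 5p strand and differ in the 3′ part of the molecule. The family is abundant in renal tubule cells and in podocytes, the filtering epithelial cells of the glomerulus. Known targets include Ctgf, a profibrotic growth factor, Becn1, an autophagy protein, and Notch1, a signaling receptor. From one hairpin, one strand is usually kept in the silencing complex and the other is mostly degraded, so the arms of one hairpin share a precursor but can differ in abundance.

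Mature sequences of 5 members were found in RefSeq (GRCm38.p6). They are shown because the members fall into groups by sequence that recur in the results. The seed is in capitals.
miR-30a-5p: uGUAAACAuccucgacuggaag
miR-30e-5p: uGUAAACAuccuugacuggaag
miR-30c-5p: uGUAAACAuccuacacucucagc
miR-30a-3p: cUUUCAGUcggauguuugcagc
miR-30e-3p: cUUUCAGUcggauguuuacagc

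The 3 members of the 5p strand in this list had the seed GUAAACA and were identical over their first 12 bases. miR-30a-5p and miR-30e-5p were identical at 21 of 22 positions, whereas miR-30c-5p matched each of them at 17 of 22. The members of the 3p strand had another seed, UUUCAGU, and were identical to each other at 21 of 22 positions.

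The array reads a miRNA through DNA probes that pair with its 3′ part, so close members were told apart by few bases. The longest probe of each member is shown 5′ to 3′ as deposited. Capitals mark the positions that differ within a group of similar probes.
miR-30a-5p: cttccagtcGAggatgt
miR-30e-5p: cttccagtcAAggatgt
miR-30d-5p: cttccagtcGGgga
miR-30b-5p: AGCTgagtgtaggatgt
miR-30c-5p: gCTGAgagtgtaggatgt
miR-30a-3p: gctgCaaacatccgact
miR-30e-3p: gctgTaaacatccgactg

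The probes of miR-30a-5p, miR-30d-5p and miR-30e-5p, lined up at the 5′ end, formed one group. The miR-30a-5p probe differed at 1 of 17 positions from that of miR-30e-5p and at 1 of 14 from that of miR-30d-5p. The probes of miR-30b-5p and miR-30c-5p, lined up at the 3′ end, formed another and differed at 4 of 17 positions. The 3p probes differed at 1 of 17 positions. How far a probe also bound its near relatives was not tested, so values of members that differ by 1 base may share signal.

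The hairpins lie in 3 pairs on the mouse genome (GRCm38.p6). Mir30a and Mir30c-2 lie on the plus strand of chromosome 1 (chr1:23272269-23291784), with 19361 bases between them. Mir30e and Mir30c-1 lie 2983 bases apart on the minus strand of chromosome 4 (chr4:120769534-120772697), within the span of Nfyc, which encodes a subunit of the transcription factor NF-Y. Mir30b and Mir30d lie 3697 bases apart on the minus strand of chromosome 15 (chr15:68337415-68341289). Mature miR-30c-5p is encoded by both Mir30c-1 and Mir30c-2, and the array cannot tell these sources apart.

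The signal of a member was the sum of its probe signals in scanner units, over probes whose signal exceeded 3 times the scanner's error. The members had 15 probes in 280 spots. Each signal is given with the scanner error, the probe error from the scanner software, which covers 1 array only. It is not the spread of the spots and was much wider. In sham, the 17-base probe of miR-30a-5p had 851 ± 85.2, with a standard error of its spots of 1.04%. For the 17-base probe of miR-30e-5p these were 224 ± 22.5 and 0.71%. With 1 array per group there was no spread between mice and no test. Differences below are therefore compared with the scanner error alone. The sham and 6 h arrays shared slide 1 and a scan, the 12 and 24 h arrays shared slide 2 and a scan, and the 48 h array was on slide 2 in a scan of its own. For 12, 24 and 48 h against sham, slide and time cannot be told apart. The scanner software also multiplied each signal by the effective size of a feature. This factor was 0.774 at 12 h and 0.776 at 24 h and 0.6 for the remaining arrays. Between 197 (48 h) and 298 (24 h) miRNAs were detected on an array, and no miRNA spot was saturated.

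Without scaling, 6 of the 7 members had the same order of arrays: lowest at 48 h, then sham, 6 h and 12 h, and highest at 24 h. The exception was miR-30e-3p, whose signals at 6 and 12 h were just under that of sham. The median log2 ratios of the 7 members over sham were 0.25, 0.50, 0.76 and −0.64 at 6, 12, 24 and 48 h. The 182 miRNAs detected on all 5 arrays, members included, had medians of 0.16, 0.55, 1.03 and −0.23 at these times. Summed over the members, the signals were 2608 for sham and 3344, 4060, 4863 and 1867 for the times after IRI. As a share of the summed signal of all detected miRNAs they made up 4.0% in sham and then 4.33, 3.26, 3.55 and 2.48%. The RNA came from a piece of frozen kidney tissue, and the methods do not say from which region. In such samples, fewer cells of a type and less RNA per cell cannot be told apart.

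**Figure D1:**
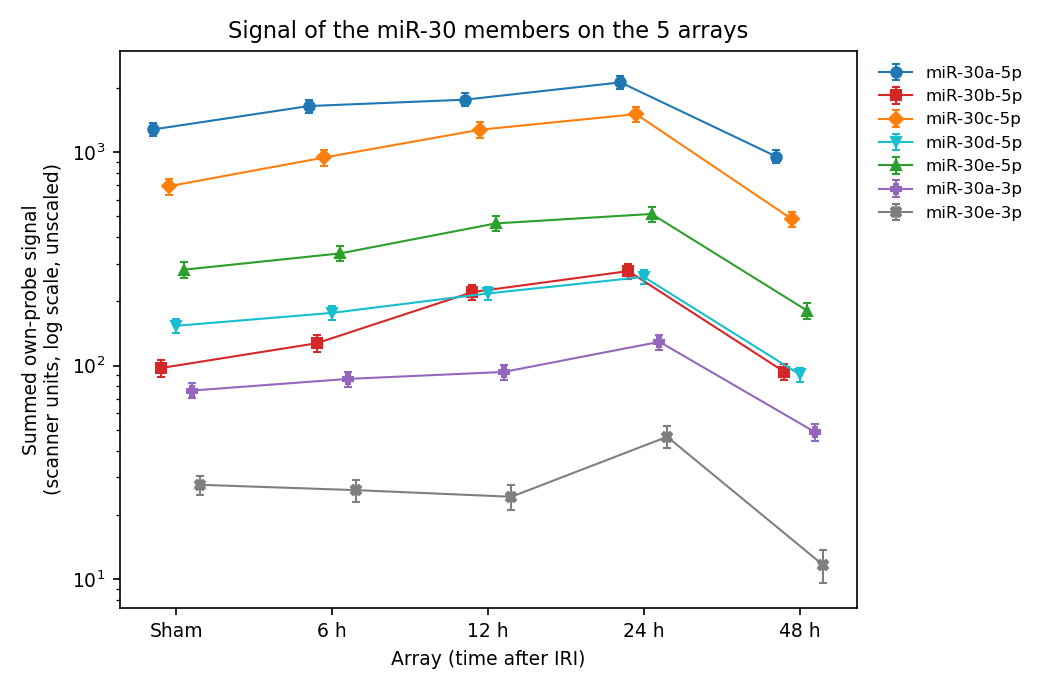
Summed own-probe signal of the 7 miR-30 members (log scale, scanner units, unscaled) on the sham array and the arrays for each time after IRI (6, 12, 24 and 48 h); points are single arrays and bars the scanner error. All members are highest at 24 h and lowest at 48 h; levels of different members are read by different probes and are not comparable.

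miR-30a-5p, whose hairpin yields both a 5p and a 3p member here, had a signal of 1279 ± 91.8 in sham, and 1647 ± 119, 1763 ± 123, 2126 ± 149 and 955 ± 68.7 at the successive times after IRI. All 4 arrays after IRI differed from sham by more than the scanner error, 3 of them upward. The log2 ratios over sham were 0.36, 0.46, 0.73 and −0.42 at these times, and the scanner error was 0.14 to 0.15.

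miR-30d-5p, which is encoded beside miR-30b-5p, had signals of 154 ± 11.1, 177 ± 12.8, 218 ± 15.8, 260.4 ± 19 and 90.95 ± 6.89 in sham and at 6, 12, 24 and 48 h. Its log2 ratios over sham were 0.20, 0.50, 0.76 and −0.76. The first 3 differed from those of miR-30a-5p, its neighbor in sequence, by less than the scanner error. At 48 h its ratio minus that of miR-30a-5p was −0.34 ± 0.21 on the log2 scale.

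miR-30e-5p, encoded within the span of Nfyc, had signals of 282 ± 23.2, 336 ± 27.7, 464 ± 37.7, 514 ± 41.8 and 181 ± 15.0 on the same arrays. Its log2 ratios over sham were 0.25, 0.72, 0.87 and −0.64. Its ratio exceeded that of miR-30a-5p by 0.26 ± 0.22 at 12 h, and at the other times they differed by less than the scanner error.

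miR-30b-5p, encoded on chromosome 15, had a signal of 97.4 ± 8.64 in sham, and 127 ± 11.1, 221 ± 18.7, 277 ± 23.4 and 93.7 ± 8.30 at the successive times. It was the member with the highest log2 ratio at 12, 24 and 48 h, with values of 0.39, 1.18, 1.51 and −0.06 at the 4 times. It was also the only member that did not differ from sham by more than the scanner error at 48 h.

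miR-30c-5p, the member with a pair of source hairpins, had signals of 693 ± 59.1, 945 ± 79.7, 1276 ± 105, 1509 ± 125 and 486.1 ± 41.1 in sham and at 6, 12, 24 and 48 h. Its log2 ratios were 0.45, 0.88, 1.12 and −0.51. It had the highest ratio of the members at 6 h and the next highest after miR-30b-5p at 12 and 24 h.

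miR-30a-3p, the opposite strand of miR-30a-5p, had signals of 76.4 ± 6.09, 86.6 ± 6.93, 93.4 ± 7.63, 129 ± 10.5 and 48.7 ± 4.36. Its log2 ratios were 0.18, 0.29, 0.76 and −0.65. At 24 h the ratio of the 3p strand minus that of the 5p strand was 0.03 ± 0.22, and at 6, 12 and 48 h it was −0.18, −0.17 and −0.23, each with an error of 0.22 to 0.23. The arms of the miR-30a hairpin thus differed by no more than about the scanner error at all 4 times, though with quantile normalization the difference at 48 h was 0.26.

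miR-30e-3p, the opposite strand of miR-30e-5p, was the dimmest member, with signals of 27.6 ± 2.87, 26.1 ± 3.02, 24.3 ± 3.16, 46.4 ± 5.48 and 11.6 ± 2.0. At 12 and 48 h only 1 of its 2 probes was detected, so those sums lack a probe that the sham sum holds. By the sums, its log2 ratios were −0.08, −0.19, 0.75 and −1.25. By the 18-base probe that was detected on all arrays they were −0.08, 0.11, 0.73 and −0.95, so the direction at 12 h depended on the missing probe. Beside miR-30e-5p, the sums of the 3p strand gave differences in log2 ratio of −0.34 ± 0.28, −0.91 ± 0.29, −0.12 ± 0.28 and −0.61 ± 0.34 in the order of the times. The values at 12 and 48 h carry the same missing probe. With normexp background correction the difference at 48 h turned to 0.30.

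A miRNA was called where its ratio was at least 1.5-fold in 1 direction, and the members' counts are set beside the share of all 182 miRNAs called by the same rule. At 6 h, 0 of 7 members were called higher, against 24.7% of the 182. At 12 h, 3 of 7 were called higher (miR-30b-5p, miR-30c-5p and miR-30e-5p), against 48.4%. At 24 h, 7 of 7 were called higher, against 85.2%. At 48 h, 4 of 7 were called lower (miR-30d-5p, miR-30e-5p, miR-30a-3p and miR-30e-3p), against 23.6%. These calls at 48 h depended on the background correction. With the normexp method 0 of 7 members were called lower, and miR-30e-3p went from −1.25 to −0.15. The share of the 182 called with normexp was not counted, so this count cannot be set against all miRNAs. The members' median minus that of the 182 at 48 h was −0.41 both unscaled and with normexp. The unscaled counts at 12 and 24 h were close to the shares of all miRNAs, while at 48 h the members' share was the larger.

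With 1 effective feature size on all arrays, which lowers every ratio at 12 and 24 h equally, 1 of 7 members (miR-30b-5p) was called higher at 12 h, against 32.4% of the 182, and 2 of 7 (miR-30b-5p and miR-30c-5p) at 24 h, against 54.4%. The values at 6 and 48 h are not affected by this factor. Relative to the median ratio of the 182, miR-30b-5p was the 1 member called higher at 12 h, against 28% of all, and miR-30e-3p was the 1 called lower, against 11.5%; the latter call rests on the probe missing at 12 h. On this relative scale, 0 members were called at 24 h, against 23.6% higher and 9.34% lower, and miR-30e-3p alone was called lower at 48 h, against 12.1%.

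The members' place among all miRNAs shifted with time. At 6 h, 6 of 7 members had ratios above the median of the 182. At 12 h, 3 were above and 4 below. At 24 h, 2 were above and 5 below, and at 48 h, 1 was above and 6 below. The member median minus the median of the 182 was 0.10, −0.04, −0.27 and −0.41 at 6, 12, 24 and 48 h. Any scale factor of an array cancels in this difference, but at 12 and 24 h it depended on other choices. Against the 137 miRNAs numbered below 1000 it was 0.09 and −0.14 at these times. With quantile normalization it was 0.44 and −0.029, and with normexp correction 0.039 and 0.00024. At 48 h quantile normalization gave −0.49 and normexp −0.41. Ranked among the 182 ratios, miR-30a-5p stood at percentile 69.1 at 6 h and at 43.1, 26.5 and 33.1 at the later times. miR-30d-5p stood at percentiles 55.8, 46.4, 29.8 and 13.8. miR-30b-5p stood higher throughout, at 70.7, 72.4, 73.5 and 60.2.

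**Figure D2:**
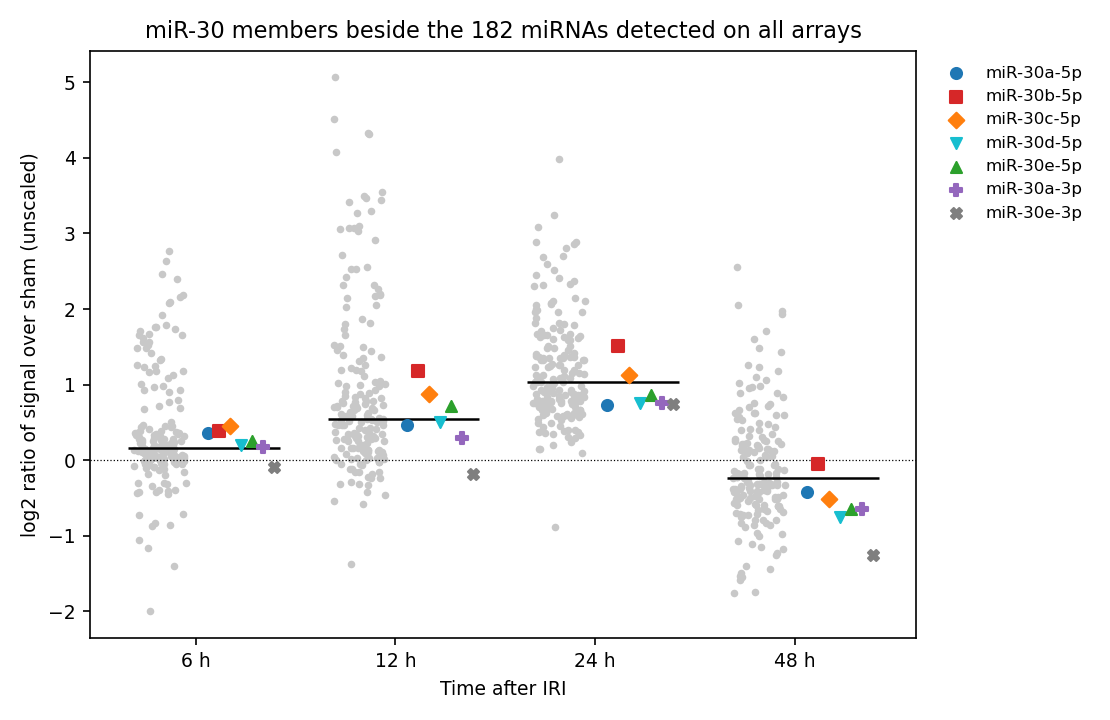
Unscaled log2 ratio of signal over sham (y axis) by time after IRI (x axis; 6, 12, 24 and 48 h) for the 182 miRNAs detected on all 5 arrays (grey points, spread sideways for visibility) and for the 7 miR-30 members (colored symbols, which are also among the grey points); black lines are medians of the 182. At 6 h, 6 members lie above the median, and at 48 h only miR-30b-5p does.

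The direction of the members' median against sham depended on how arrays were put on one scale at 6, 12 and 24 h. The median of the 7 at 24 h was 0.76 unscaled and 0.39 with 1 feature size. It was −0.41 after each array was divided by the median signal of the 182 miRNAs, −0.26 after quantile normalization and −0.33 after division by 4 spike-in controls, which are RNAs that do not come from the kidney. At 48 h it was below 0 on every scale tried, with −1.68 for the mean of the spike-in controls and −0.38 for the median signal. The exception among single members was miR-30b-5p, which at 48 h was at −0.06 unscaled and at 0.20 with the median signal. The 4 spike-in controls had mean log2 ratios over sham of 0.07, 1.05, 1.09 and 1.04 at 6, 12, 24 and 48 h. These are unscaled, so the values at 12 and 24 h also hold the larger feature size of those arrays. Single controls differed widely, from 0.61 to 1.58 at 24 h and from 0.63 to 1.28 at 48 h. Divided by the control with the lowest ratio at 24 h alone, the members' median at 24 h was 0.15. Whether labelling and hybridization explain the members' unscaled ratios was not tested.

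**Figure D3:**
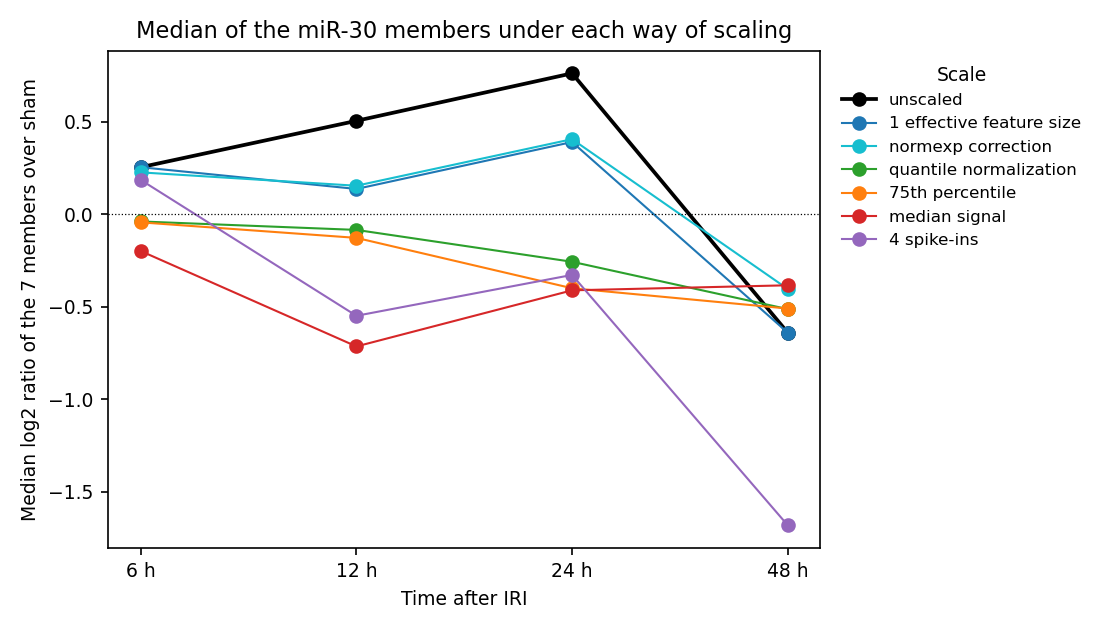
Median log2 ratio of the 7 miR-30 members over sham (y axis) by time after IRI (x axis; 6, 12, 24 and 48 h), with 1 line for each of 7 ways to put the arrays on one scale. At 24 h the medians lie between −0.41 and 0.76 and differ in sign, and at 48 h all 7 lie below 0.

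Comparisons that kept to slide 2 were 24 h over 12 h, in the same scan, and 48 h over 24 h. At 24 h, all 7 members were above their 12 h signals, with a median log2 ratio of 0.27 (0.46 for the 182), and only miR-30e-3p was called higher, against 34.1% of the 182. By its 18-base probe alone, which was detected on all arrays, this ratio was 1.54-fold. From 24 to 48 h, 7 of 7 members were called lower, against 89.6% of the 182, with a member median of −1.52 and a median of −1.24 for all. With 1 feature size, 7 of 7 were still called lower, against 67%, with a member median of −1.15. Within the scan of slide 1, 6 h over sham, the highest member ratio was the 0.45 of miR-30c-5p.

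Among the 5p members, the ratios were also set out by the 3′ part of the sequence. The split of miR-30b-5p and miR-30c-5p from miR-30a-5p, miR-30d-5p and miR-30e-5p was described after the values were seen and has no test. Within the first group, miR-30b-5p exceeded miR-30c-5p by 0.30 ± 0.25 at 12 h, 0.39 ± 0.25 at 24 h and 0.46 ± 0.25 at 48 h, wider gaps than those between miR-30c-5p and miR-30e-5p. The mean log2 ratio over sham of miR-30b-5p and miR-30c-5p was 0.42, 1.03, 1.32 and −0.28 at the 4 times. That of miR-30a-5p, miR-30d-5p and miR-30e-5p was 0.27, 0.56, 0.79 and −0.61. The difference was 0.14 ± 0.15, 0.47 ± 0.15, 0.53 ± 0.15 and 0.32 ± 0.15, and it exceeded the scanner error at 12, 24 and 48 h. Each of the 6 pairs of one member from each group had the same order at 6, 12 and 24 h. At 48 h, 5 of 6 did, the exception being miR-30c-5p (−0.51) and miR-30a-5p (−0.42).

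This separation also appeared between members of one genomic pair. The ratio of miR-30b-5p minus that of its neighbor miR-30d-5p was 0.19 ± 0.23, 0.68 ± 0.23, 0.75 ± 0.23 and 0.70 ± 0.24 at the successive times. For miR-30c-5p minus miR-30a-5p it was 0.42 ± 0.22 at 12 h and 0.39 ± 0.22 at 24 h, and at 6 and 48 h it was within the scanner error. For miR-30c-5p minus miR-30e-5p it exceeded the error only at 24 h, with 0.26 ± 0.24. Between 12 and 24 h, on one slide and in one scan, the groups differed by 0.06 ± 0.15, so the separation was seen against sham and not between these arrays. From 24 to 48 h the difference was −0.21 ± 0.15.

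The probes of a member did not all give the same ratio. For miR-30b-5p at 24 h, the 16-base probe gave a log2 ratio over sham of 1.92 and the 17-base probe 1.43. The shorter minus the longer probe was 0.17, 0.45, 0.49 and 0.26 for miR-30b-5p at 6, 12, 24 and 48 h. For miR-30c-5p it was 0.13, 0.36, 0.34 and 0.11. These were the members with the widest gaps at 12 and 24 h. For miR-30a-5p, with 3 probes, the shortest minus the longest was 0.27 at 12 h and 0.20 at 24 h, and miR-30d-5p had gaps of −0.05 to 0.00. At 24 h, 5 of the 6 members with several probes detected on all arrays had the higher ratio in the shortest probe, with a median gap of 0.17. Across all 122 miRNAs with such probes it was 68% of them and a median gap of 0.07.

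The separation of the 5p members was also computed from single probes, which are parts of the same sums. Taking the longest probe of each, miR-30b-5p and miR-30c-5p exceeded the other 3 by 0.42 at 12 h and 0.48 at 24 h. With probes of 17 bases alone, which leaves out miR-30d-5p, the differences were 0.60 and 0.66. That length is the longest probe of miR-30a-5p, miR-30b-5p and miR-30e-5p but the shorter probe of miR-30c-5p. For miR-30c-5p it gave log2 ratios of 1.18 and 1.41, against 0.82 and 1.06 for the 18-base probe. With the shortest probes the differences between the groups were 0.71 and 0.79. These choices were made after the data were seen.

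**Figure D4:**
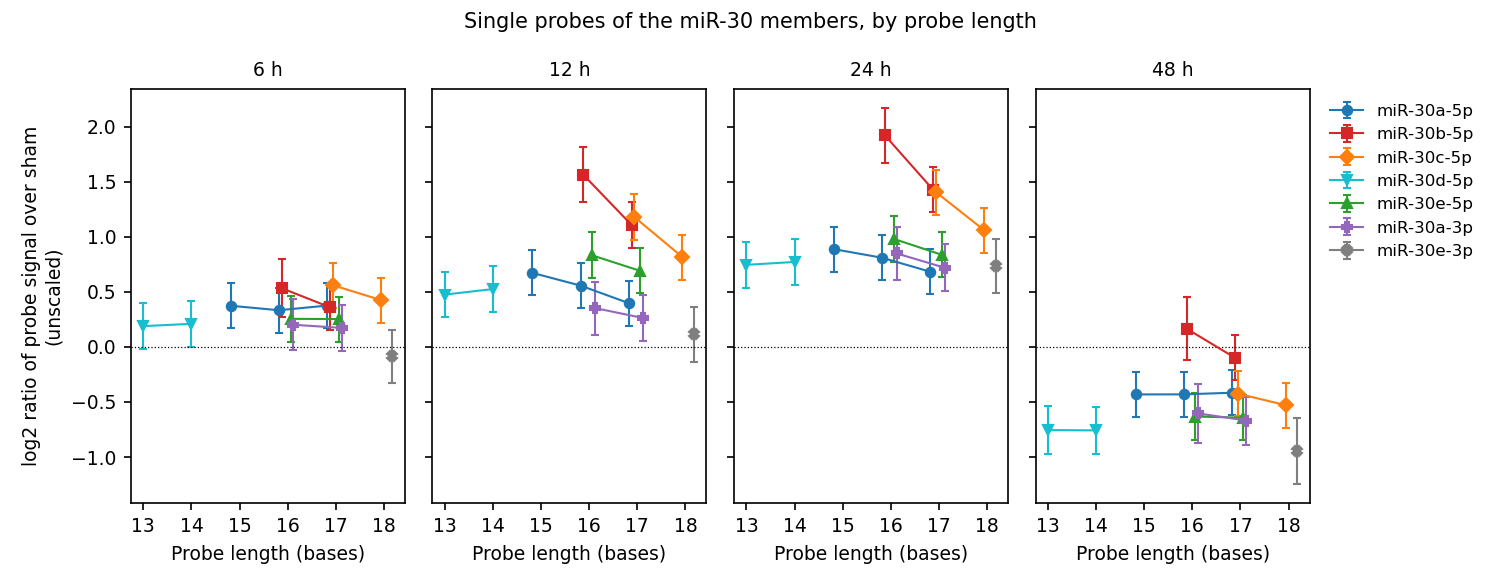
Unscaled log2 ratio over sham (y axis) of each probe of the 7 miR-30 members that was detected on all 5 arrays, by probe length in bases (x axis, points shifted sideways slightly so that they do not overlap); panels are 6, 12, 24 and 48 h after IRI and bars the scanner error. The 16-base probe of miR-30b-5p is the highest in each of the panels at 12, 24 and 48 h, and the probes of miR-30d-5p give nearly equal ratios.

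The members' probes were also compared in base composition, since the ratios of all miRNAs moved with it. The longest probes of the members held 47.1 to 64.3% G and C, with a median of 50%, which was the median of the 182. Across the 182 miRNAs, the GC content of the longest probe and the log2 ratio over sham had Pearson r values of 0.35, 0.35, 0.40 and 0.12 at 6, 12, 24 and 48 h; these points share arrays and are not independent. The longest probes of miR-30b-5p and miR-30e-5p held 47.1%, that of miR-30c-5p 50%, that of miR-30a-5p 52.9% and that of miR-30d-5p 64.3%. The part of GC content in the members' ratios was not tested.

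The array held 7 further miRNAs that were read as relatives. They were other miR-30 strands, miR-30f, miR-384-5p and miR-384-3p, the last with another seed, UUCCUAG. miR-30c-2-3p, the opposite strand of the Mir30c-2 hairpin, was the 1 detected on all arrays, with signals of 13.2, 14.6, 14.7, 22.7 and 9.95 in sham and at 6, 12, 24 and 48 h. Like the 7 members it was lowest at 48 h and highest at 24 h. miR-30c-1-3p was detected with 2.96, 8.11, 11.8 and 7.77 in sham and at 6, 12 and 24 h, and miR-30b-3p with 6.42, 6.15 and 2.77 in sham and at 6 and 48 h. The lowest probe signals detected on an array were 1.99 to 4.35. miR-30d-3p, miR-30f, miR-384-3p and miR-384-5p, which has the seed GUAAACA, were detected on 0 arrays.

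Markers of the kidney's cell types were read on the same arrays. Of 9 miRNAs of tubule and other epithelium, 8 were detected on all arrays and miR-215-5p on none. Their summed signal was 2199, 2344, 2735, 3458 and 1699 in sham and at 6, 12, 24 and 48 h, and their median log2 ratio over sham was 0.11, 0.29, 0.79 and −0.37. The list's median minus that of the 182 was −0.05, −0.25, −0.24 and −0.14. The tubule miR-204-5p departed from the list, with log2 ratios of 2.69 at 24 h and 0.19 at 48 h, where it alone of the list was above sham. The endothelial miR-126-3p had log2 ratios of 0.09, 0.12, 0.63 and −0.50, while miR-126-5p, the other endothelial miRNA listed, was detected in sham alone. The red cell miR-451a had signals of 159, 500.3, 234, 538 and 105, while miR-144-3p, the other red cell miRNA on the array, was not detected. Of 6 leukocyte miRNAs, 3 or 4 were detected on an array, with summed signals of 47.8, 76.7, 111, 70.7 and 61.2, and the myeloid miR-223-3p had log2 ratios of 1.17, 1.74, 0.67 and 0.75. Unscaled at 48 h, 6 of the members, the median of the epithelial list, miR-126-3p and miR-451a were below sham. miR-30b-5p did not differ from sham by more than the scanner error, and miR-223-3p was above it. Of the other leukocyte miRNAs at 48 h, miR-155-5p was at 0.72 and miR-142-3p at 0.13, while miR-146a-5p, detected in sham, was not detected. The part of changes in cell composition in the members' ratios was not tested.

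The miRNAs outside the family whose 4 log2 ratios over sham were nearest to the mean of the 5p members (0.33, 0.75, 1.00 and −0.48) were found among 174 detected on all arrays, by the root mean square difference over the 4 ratios. They were miR-200a-3p (0.09), an epithelial miRNA, miR-705 (0.14), miR-194-5p (0.14), a tubule miRNA, miR-140-5p (0.15) and miR-101a-3p (0.16). By single member, the nearest were miR-101a-3p to miR-30a-5p (0.11), miR-221-3p to miR-30b-5p (0.16) and miR-200a-3p to miR-30c-5p (0.18). miR-500-3p was nearest to both miR-30d-5p (0.08) and miR-30a-3p (0.05). For miR-30e-5p it was miR-26a-5p (0.11) and for miR-30e-3p miR-378a-5p (0.17). These likenesses rest on 4 ratios that share the sham array.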

How the data were processed

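Kidney miRNAs were measured on 1-color Agilent microarrays, 1 array for sham and 1 for each of 4 times after IRI, with groups taken from the sample labels. The authors deposited, per the file headers, spot, probe and miRNA intensity values from Agilent Feature Extraction 10.7.1.1, background-subtracted and detrended within each array and not normalized between arrays. A deposited table of processed log2 values, of which neither the scale nor the centring is given in the sources used here, served as an alternative only; its array medians were −3.12, −3.22, −3.30, −3.32 and −3.01.

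For each miRNA, probe signals above 3 times the probe error were summed once per probe, and log2 ratios were taken without scaling, since the methods define abundance as the raw signal relative to a blank value of 0.1, which was taken as a constant that cancels in a ratio. For the 7 members these sums equalled the deposited total signals within 0.1%. Errors were combined as the root of summed squares, treating probes as independent. Positions and mature sequences came from RefSeq (GRCm38.p6), where 1017 of 1247 miRNAs matched. The members, the markers, the relatives and the rule for the nearest patterns (smallest root mean square difference over 4 ratios, 5 for the family mean) were chosen with earlier results of these data known. The miRNAs named are those of these lists and rules.

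The number of arrays limits the precision, and no test or p-value was possible. The alternatives were 1 feature size, scaling by the median signal, the 75th percentile or the spike-in controls, quantile normalization, the processed table, no detection filter, sums of spot means, normexp correction (offset 50), single probes, other comparison sets and leaving out single members. Alternatives for the 3′ groups, the arms and the counts of calls, and scaling by single spike-in controls, were added after the data were seen. Computations ran in R 4.3.3 with limma 3.58.1 and in Python 3.11.15 with matplotlib 3.10.9, pandas 2.3.3 and numpy 2.4.6. The sums and ratios were tested on simulated data.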

Additional observations from a re-analysis of the deposited data

Results flagged for a closer look

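Unscaled, the members' ratios over sham had opposite signs at the last time points. All 7 were above 0 at 24 h, with a median log2 ratio of 0.76, and all 7 were below 0 at 48 h, with a median of −0.64, although miR-30b-5p at 48 h was within its scanner error. Of all 182 miRNAs, 181 were above 0 at 24 h and 111 were below 0 at 48 h, so the sign at 24 h was not particular to the members. The difference between the times was not tested. The effective feature size was larger on the 24 h array, and with 1 feature size the medians were 0.39 and −0.64. The signs were not opposite on other scales: at 24 h the median was −0.41 with median scaling, −0.40 with the 75th percentile, −0.33 with the spike-in controls, −0.26 with quantile normalization and −0.28 in the processed table.

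The 4 spike-in controls, which the unscaled comparisons of the members do not use, were also above their sham level. Their mean log2 ratios at 24 and 48 h were 1.09 and 1.04, of which the value at 24 h also holds the larger feature size.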

How the results depend on the processing

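No paired analysis was possible because no group had a replicate array, and for the same reason leaving out replicates was not run. The number of arrays and, for miR-30e-3p, a signal close to the detection level limit the precision. Of 156 values for the members' median, alone or against all 182 miRNAs, under the alternatives other than those chosen after the data were seen, 120 moved by less than the scanner error. Leaving out single members and using other comparison sets were among these. A scale factor of an array cancels in the median of the members minus that of the 182; dividing by the median signal of the 182 is another scaling than subtracting their median ratio. The causes of the changes below were not tested.

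The members' median over sham at 6 h (0.25) was −0.20 with median scaling, −0.045 with the 75th percentile, −0.040 with quantile normalization, −0.043 in the processed table and 0.049 for the 3p members. At 12 h (0.50) it was 0.14 with 1 feature size, −0.71 with median scaling, −0.13 with the 75th percentile, −0.55 with the spike-in controls, −0.085 with quantile normalization, 0.13 with mean processed signals, 0.15 with normexp correction, −0.15 in the processed table, 0.72 for the 5p and 0.052 for the 3p members. At 24 h (0.76) it was 0.39 with 1 feature size and 0.40 with mean processed signals or normexp, and it reversed to −0.41 with median scaling, −0.40 with the 75th percentile, −0.33 with the spike-in controls, −0.26 with quantile normalization and −0.28 in the processed table. At 48 h (−0.64) it was −0.38 with median scaling, −1.68 with the spike-in controls, −0.40 with normexp and −0.95 for the 3p members.

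The members' median minus that of the 182 at 6 h (0.10) was −0.11 for the 3p members. At 12 h (−0.04) it was 0.44 with quantile normalization, 0.43 in the processed table, 0.17 for the 5p and −0.50 for the 3p members. At 24 h (−0.27) it was −0.029 with quantile normalization, 0.00024 with normexp and −0.050 in the processed table. At 48 h (−0.41) it was −0.72 for the 3p members.

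Single members called at least 1.5-fold changed sign as follows. At 12 h, median scaling gave −0.036 for miR-30b-5p, −0.34 for miR-30c-5p and −0.50 for miR-30e-5p, the spike-in controls gave −0.17 for miR-30c-5p and −0.33 for miR-30e-5p, and miR-30e-5p was at −0.085 with quantile normalization and −0.15 in the processed table. At 24 h, for miR-30a-5p, miR-30d-5p, miR-30e-5p, miR-30a-3p and miR-30e-3p in this order, the values were −0.44, −0.41, −0.30, −0.41 and −0.42 with median scaling, −0.43, −0.40, −0.29, −0.40 and −0.41 with the 75th percentile, −0.36, −0.33, −0.22, −0.33 and −0.34 with the spike-in controls, −0.51, −0.26, −0.25, −0.31 and −0.63 with quantile normalization, and −0.35, −0.26, −0.28, −0.31 and −0.63 in the processed table. miR-30c-5p was at −0.049 with median scaling and −0.038 with the 75th percentile. miR-30b-5p reversed at 24 h under none of these.

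The difference between miR-30b-5p with miR-30c-5p and the other 5p members was above 0 under all 6 added alternatives at all 4 times. It was 0.38 (normexp) to 0.71 (shortest probes) at 12 h and 0.42 (normexp) to 0.79 (shortest probes) at 24 h.

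Other alternatives were chosen after the data were seen. With the labelling controls dmr_285 and dmr_31a and the hybridization controls dmr_3 and dmr_6 each alone, in this order, the members' median was −0.51, −0.32, −0.20 and −1.17 at 12 h, −0.38, −0.27, 0.15 and −0.82 at 24 h and −1.92, −1.69, −1.27 and −1.84 at 48 h. The count of members called higher was 1 at 12 h (3 unscaled) and 2 at 24 h (7 unscaled) with 1 feature size, mean processed signals or normexp, and 0 at both times with median, 75th percentile or spike-in scaling, quantile normalization or the processed table. The count called lower at 48 h (4 unscaled) was 1 with median scaling, 2 with the 75th percentile, quantile normalization or the processed table, 7 with spike-in scaling and 0 with normexp. Of these alternatives, the share of the 182 called was counted only for 1 feature size, with 32.4% higher at 12 h and 54.4% at 24 h. The other counts therefore cannot be set against all miRNAs. miR-30e-3p minus miR-30e-5p at 12 h (−0.91) was −1.58 with quantile normalization, −0.38 with normexp, −1.52 in the processed table and −0.61 with probes detected on all arrays, and at 48 h (−0.61) it reversed to 0.30 with normexp. miR-30a-3p minus miR-30a-5p at 48 h (−0.23) was 0.26 with quantile normalization, 0.14 with normexp and 0.45 in the processed table.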
